A study of Mus musculus with 30 samples.

Results

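The circadian clock genes described here are 10 genes taken by symbol from the deposited count table, out of 54232 genes in all: Arntl, Clock, Per2, Per3, Cry1, Cry2, Nr1d1, Nr1d2, Dbp and Tef. Each symbol matched 1 Ensembl gene, and all 10 genes had enough reads to be tested. They were compared across the 6 groups of the study and between the replicates of a group, where they give a check on whether cultures were at different phases of the clock when RNA was taken.

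RNA sequencing was performed on 3T3-L1 cells, a mouse preadipocyte line, after culture in adipogenic medium, with 5 libraries in each of 6 groups and nothing in the labels that says whether the 5 came from separate experiments. The groups were control cells in adipogenic medium alone, cells given pNaKtide (0.7 µM, a peptide that blocks the signaling function of the Na/K-ATPase through Src), cells given indoxyl sulfate (IS, 100 µM, a uremic toxin), cells given IS + pNaKtide, cells given oxidized LDL (oxLDL, 50 µg/mL) and cells given oxLDL + pNaKtide, at the same doses when combined. The labels give 5 days of treatment and the study's methods a shorter one repeated daily, and neither gives a clock time of harvest. The p-values measure the spread between these libraries of 1 cell line, which may be technical in part, and in bulk RNA fewer cells expressing a gene and less RNA per cell cannot be told apart.

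In mammalian cells the clock is a feedback loop of transcription. The products of Arntl (BMAL1) and Clock form a dimer that binds E-boxes and switches on the Per, Cry, Nr1d1, Nr1d2, Dbp and Tef genes. PER and CRY proteins then hold the dimer back, while the nuclear receptors encoded by Nr1d1 and Nr1d2 (REV-ERBα and REV-ERBβ) repress Arntl and the bZIP factors DBP and TEF act at D-boxes of output genes. In a running clock Arntl transcripts therefore peak at the opposite phase to those of Nr1d1, Dbp and Per3, and in adipocytes the clock is known to bear on lipolysis and fat storage.

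Gene counts per library summed to between 6945498 and 15159877, with a median of 11524210. Replicates were not equally far apart. A chi-square of their counts was between 1.30 and 57.1 per degree of freedom over the 60 pairs of replicates (median 11.1, where counting error alone gives about 1), and 4 pairs were under 2: control replicates 2 and 4 (1.83), pNaKtide replicates 1 and 2 (1.36) and 4 and 5 (1.40), and IS + pNaKtide replicates 3 and 4 (1.30). Whether these pairs come from separate cultures is not stated, and counts of members are also given with each such pair summed into 1 library where they moved, a choice made after seeing the data. The 10 adipocyte marker genes summed to between 12280 and 17320 CPM (counts scaled to a common library total) and the 6 preadipocyte markers to between 260.0 and 406 CPM. The 6 macrophage markers summed to at most 8.11 CPM, with Ptprc and Itgam at 0 in every library, and the endothelial, lymphocyte and red blood cell lists to less than 1 CPM each. The first principal component of log2 CPM held 64.4% of the variance, and some libraries lay apart from the rest of their groups along it. Control replicate 1 had a score of -25.8 against 6.48 to 29.9 in the rest of its group, and IS replicate 4 had 28.2 against -36.7 to -23.2, and these are the libraries meant below by both libraries that stand apart. oxLDL + pNaKtide replicate 4 had 67.5 against 14.5 to 33.2, farther out on the side of its own group, and is left out on its own. Also outside the rest of their groups were pNaKtide replicate 3 (-5.36 against 15.9 to 36.6) and IS + pNaKtide replicate 2 (-2.45 against -18.5 to -15.3). Each of these was likewise left out only on its own. Calls of members that rest on these libraries are given with and without them. A second series-wide feature was that read counts per library followed trends over the GC content and length of the transcripts, so that values of the members called are also given with these trends taken out. The trends differed between groups. For Clock the trend was 0.20 to 0.61 on the log2 scale in oxLDL libraries and -1.03 to -0.11 in oxLDL + pNaKtide libraries. In control cells it was 0.43 in replicate 1 and -0.42 to -0.10 in the rest. Taking the trends out can thus also take out part of a treatment difference, and the parts cannot be told apart here. Of the 10 adipocyte markers, 1 was higher and 2 lower in oxLDL against control, 1 higher and 4 lower in IS against control, and 4 higher and 1 lower in oxLDL + pNaKtide against oxLDL, where 36.0%, 7.94% and 48.3% of all genes were called. Of the 6 preadipocyte markers, 1 was lower, 1 was lower, and 2 were higher and 1 lower in these comparisons. After the trends were taken out, when 19.9%, 4.11% and 36.7% of all genes were called, 1 adipocyte marker was lower, 4 were lower and 4 were higher. No preadipocyte marker was then called in the first comparison, 1 was lower in the second, and 3 were higher and 2 lower in the third. The part of either list in the clock genes' values was not tested.

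The members lie on separate chromosomes apart from Arntl and Dbp. On GRCm38, Arntl lies at chr7:113207465-113314126 on the plus strand and Clock at chr5:76209868-76304792 on the minus strand. Nr1d1 lies at chr11:98767932-98775333 on the minus strand, and its exons share 263 bases (8.55% of its exon bases) with Thra, the thyroid hormone receptor alpha gene on the other strand. Dbp lies at chr7:45705088-45710203 on the plus strand, and its exons share 539 bases (18.0%) with those of Sphk2, a sphingosine kinase gene on the other strand. Whether the authors' counting used the strand is not given in the sources used here, so reads from these overlaps cannot be assigned with certainty, and values of Thra and Sphk2 are given beside calls of Nr1d1 and Dbp. The GC content of the transcripts ran from 40.9% in Clock and 41.8% in Nr1d2 to 56.8% in Nr1d1 and 61.6% in Dbp.

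Promoter sequences from RefSeq (GRCm38.p6) were matched for 9 of the 10 members, Per2 being the one without an entry, and were searched on both strands over the 250 bases before the start site for an E-box (CACGTG), a D-box (TTATGTAA or TTACGTAA) and the ROR response element that REV-ERB proteins also bind. The windows below belong to the paralogs Nr1d1 and Nr1d2, which were called in opposite directions, to Dbp, and to Per3 and Cry1, which held a match. They are written 5′ to 3′ on the strand of the gene in lower case, with matches in capitals, and lie at chr11:98775378-98775627, chr14:18239107-18239356, chr7:45704997-45705246, chr4:151044666-151044915 and chr10:85185055-85185304, in this order. The start sites are those of RefSeq, and they differ from the gene bounds of the count table's annotation given above, so that the windows of Dbp, Cry1 and Nr1d2 reach into the gene as listed there. Both windows of Tef, searched but not printed, lie wholly inside its gene as listed there.
Nr1d1: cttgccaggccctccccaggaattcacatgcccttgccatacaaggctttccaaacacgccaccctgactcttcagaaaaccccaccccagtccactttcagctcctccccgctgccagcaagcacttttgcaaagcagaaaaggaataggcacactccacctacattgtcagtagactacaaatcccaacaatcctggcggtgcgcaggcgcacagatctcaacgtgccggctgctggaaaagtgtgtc
Nr1d2: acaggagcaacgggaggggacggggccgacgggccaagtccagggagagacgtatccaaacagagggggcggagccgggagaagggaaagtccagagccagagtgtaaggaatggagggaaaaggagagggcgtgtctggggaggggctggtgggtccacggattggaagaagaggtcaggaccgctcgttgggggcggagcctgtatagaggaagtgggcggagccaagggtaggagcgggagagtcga
Dbp: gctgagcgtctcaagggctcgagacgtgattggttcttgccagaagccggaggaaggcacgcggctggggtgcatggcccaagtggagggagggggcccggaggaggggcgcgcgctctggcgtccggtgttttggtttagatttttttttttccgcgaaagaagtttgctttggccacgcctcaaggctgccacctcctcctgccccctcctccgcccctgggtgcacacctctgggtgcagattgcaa
Per3: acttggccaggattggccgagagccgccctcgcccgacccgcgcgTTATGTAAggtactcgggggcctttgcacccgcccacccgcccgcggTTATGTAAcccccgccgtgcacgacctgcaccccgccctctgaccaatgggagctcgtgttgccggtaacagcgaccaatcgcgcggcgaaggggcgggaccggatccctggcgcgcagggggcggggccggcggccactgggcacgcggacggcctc
Cry1: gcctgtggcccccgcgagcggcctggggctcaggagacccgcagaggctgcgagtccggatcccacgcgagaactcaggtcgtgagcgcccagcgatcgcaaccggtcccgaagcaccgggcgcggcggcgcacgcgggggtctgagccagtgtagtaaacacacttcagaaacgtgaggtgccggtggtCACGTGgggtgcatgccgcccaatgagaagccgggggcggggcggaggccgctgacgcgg
The window of Per3 held the D-box 2 times, at positions -205 and -158 from the start site, a motif found in 0.931% of 32851 promoter windows of all genes. An E-box was found in Cry1 at -60 and in both windows of Tef at -127 and -138, against 6.02% of all windows, and the ROR response element in no member's window, against 0.332%. A match is a match of letters only, and no match says only that these letters are not in this window.

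Compared per transcript length, the members were expressed at low to moderate levels. Group means of the authors' FPKM (fragments per kilobase, scaled to depth) were highest for Tef (14.7 to 16.6), Nr1d1 (7.45 to 13.4) and Cry2 (6.06 to 7.06). They lay between 2.87 and 6.18 for Dbp, between 2.71 and 5.87 for Clock and between 2.65 and 3.25 for Cry1. They were lower for Per2 (2.02 to 2.66), Arntl (1.77 to 2.53), Nr1d2 (1.39 to 2.48) and Per3 (0.465 to 0.690). Below, levels are TMM-normalized CPM and compare 1 gene between libraries, and differences are log2 fold changes with their standard errors (SE) from edgeR's quasi-likelihood model of all 30 libraries, called at an adjusted p-value (Benjamini-Hochberg, BH) under 0.1 over all genes tested.

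When all 6 groups were tested together, 8 of the 10 members differed, against 45.1% of the 20139 genes tested. With the close pairs summed there were 5 (Per2, Cry1 and Tef were lost), against 38.6% of all genes, and without oxLDL + pNaKtide replicate 4 the same 3 were lost (42.9%). The 2 members not called were Per3 (edgeR adjusted p = 0.15) and Cry2 (edgeR adjusted p = 0.31). With the GC and length trends taken out both of these were called and Nr1d2 and Tef were not, which again made 8 (36.0% of all genes), and Per3 was also called without both libraries that stand apart. The ratio of the highest to the lowest group mean was largest for Clock (2.21) and Dbp (2.1), followed by Nr1d2 (1.81) and Nr1d1 (1.76), and it was smallest for Tef (1.159) and Cry2 (1.15). When the 6 groups were put in the order of their means, neighbouring groups overlapped in every case for 9 members. The share of all genes for which this holds was not counted. For Nr1d1 the order ran from IS (23.3 ± 3.03 CPM, SD, n = 5) through oxLDL (26.6 ± 1.80), IS + pNaKtide (29.0 ± 1.48), control (36.1 ± 3.12) and pNaKtide (36.7 ± 3.68) to oxLDL + pNaKtide (40.9 ± 5.52), and only IS + pNaKtide and control were neighbours whose libraries did not overlap. oxLDL + pNaKtide was the lowest group for Arntl, Clock, Per2, Nr1d2 and Tef and the highest for Cry2, Nr1d1 and Dbp.

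**Figure D1:**
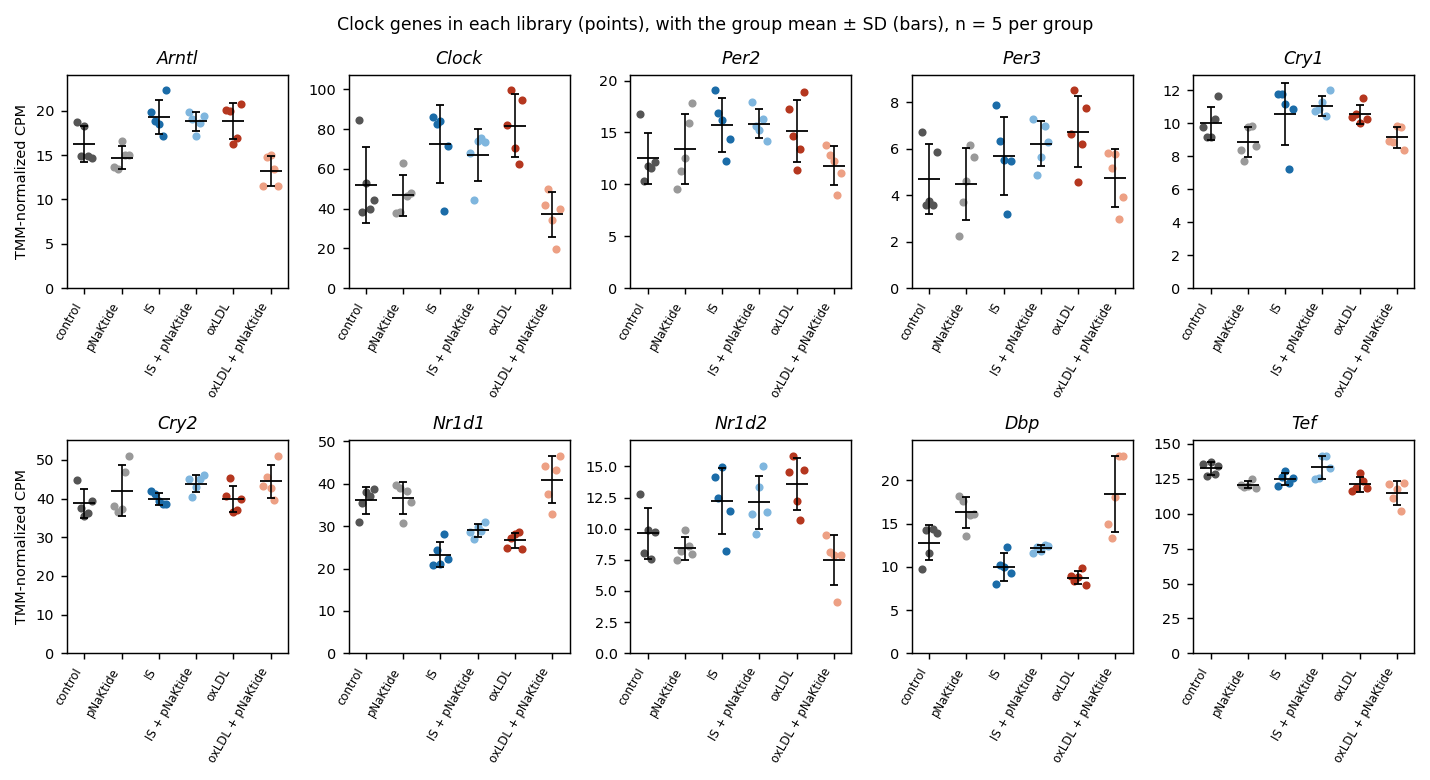
TMM-normalized CPM (y axis, from 0, a scale for each gene) of the 10 clock genes in each library (points) of the 6 groups (x axis), with the group mean ± SD (bars, n = 5). Nr1d1 and Dbp have their lowest means with IS and oxLDL and their highest with oxLDL + pNaKtide, where Clock and Nr1d2 are at their lowest means of 37.1 and 7.50 CPM.

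The first question was what oxLDL did to the clock genes. In oxLDL against control cells, 5 of the 10 members were called, 3 higher and 2 lower, against 36.0% of all genes tested. With the close pairs summed, or without control replicate 2 or 4, Clock and Per3 lost their calls and 3 members were left, against 25.1%, 25.6% and 24.7% of all genes. The median log2 fold change of the 10 members was 0.15, and that of all genes was 0.04.

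Among the activators, Clock was higher with oxLDL and Arntl did not pass the threshold. Clock was at 84.8, 38.5, 52.8, 39.7 and 44.5 CPM in control replicates 1 to 5 and at 82.0, 99.5, 70.5, 62.3 and 94.5 CPM in the oxLDL libraries. Without control replicate 1, the highest of its group, the lowest oxLDL library was above every control library. The log2 fold change of Clock was 0.65 ± 0.23 (SE, edgeR adjusted p = 0.033), and it was 0.10 (edgeR adjusted p = 0.44) with the GC and length trends taken out, so the call was lost. Without both libraries that stand apart it was 0.90 (edgeR adjusted p = 0.00053). Arntl was at 18.8, 14.9, 18.2, 14.9 and 14.7 CPM in control cells and at 20.04, 19.9, 16.3, 16.9 and 20.8 CPM with oxLDL, with groups that overlapped (0.21 ± 0.10, edgeR adjusted p = 0.12). Without both libraries it was 0.27 (edgeR adjusted p = 0.033), DESeq2 and limma also called it, and with the trends out it was 0.10 (edgeR adjusted p = 0.49).

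Of the repressors of the Per and Cry families, Per3 alone passed the threshold. Per3 was at 6.73, 3.56, 3.72, 3.59 and 5.86 CPM in control cells and at 6.63, 8.51, 4.57, 6.20 and 7.76 CPM with oxLDL, again with an overlap (0.53 ± 0.23, edgeR adjusted p = 0.077). It was the least abundant member, with as few as 18 reads in a library, and it kept its value with the trends taken out (0.59, edgeR adjusted p = 0.058) and without both libraries that stand apart (0.71, edgeR adjusted p = 0.0070). Its call was also lost without control replicate 3 or oxLDL replicate 1, 2 or 5. Per2, which had a log2 fold change of 0.28 ± 0.15 (edgeR adjusted p = 0.18), passed with the trends out (0.44, edgeR adjusted p = 0.061) and without both libraries that stand apart (0.41, edgeR adjusted p = 0.022). Cry1 (0.08 ± 0.11) and Cry2 (0.04 ± 0.09) had edgeR adjusted p-values of 0.62 and 0.76, though Cry2 passed with the trends out (0.22, edgeR adjusted p = 0.066).

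The paralogs Nr1d1 and Nr1d2, which encode the nuclear receptors that repress Arntl, were called in opposite directions. Nr1d1 was at 30.9, 35.6, 38.1, 37.0 and 38.8 CPM in control cells and at 24.9, 27.2, 28.0, 28.5 and 24.6 CPM with oxLDL. Every oxLDL library was below every control library, and Nr1d1 fell by 0.44 on the log2 scale (SE 0.10, edgeR adjusted p = 0.0078). Taking the trends out left a difference of -0.19 (edgeR adjusted p = 0.084), still called. Thra, whose exons it overlaps and which has 55114 counts against 10732 for Nr1d1, differed by -0.43 ± 0.12 (edgeR adjusted p = 0.011). The part of reads from Thra in the Nr1d1 counts was not tested. Nr1d2 was at 12.8, 8.06, 9.93, 7.60 and 9.74 CPM in control cells and at 14.5, 15.9, 12.2, 10.7 and 14.7 CPM with oxLDL. It was higher with oxLDL (0.50 ± 0.17, edgeR adjusted p = 0.025) with an overlap that came from control replicate 1 alone. Without both libraries that stand apart it was 0.63 (edgeR adjusted p = 0.00099), and with the trends out it was 0.07 (edgeR adjusted p = 0.70), so this call was lost as for Clock.

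Of the output factors, Dbp was lower with oxLDL and Tef was not called. Dbp was at 9.76, 14.2, 11.7, 14.3 and 13.9 CPM in control cells and at 8.96, 8.30, 8.77, 9.83 and 7.84 CPM with oxLDL. The only control library within the oxLDL range was again replicate 1, and Dbp fell by 0.55 on the log2 scale (SE 0.14, edgeR adjusted p = 0.0089). Without both libraries that stand apart the difference was -0.63 (edgeR adjusted p = 0.00022), and with the trends out it was -0.26 (edgeR adjusted p = 0.061). Sphk2, with which it shares exon bases, had 15640 counts against 4326 for Dbp and differed by -0.41 ± 0.09 (edgeR adjusted p = 0.0077), and its part in the Dbp counts was not tested. Tef, the most abundant member at 102 to 142 CPM in all libraries, differed by -0.13 ± 0.06 (edgeR adjusted p = 0.13), and DESeq2, limma and the fit without oxLDL replicate 3 called it.

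The second question was what IS did. It shares the control libraries with the comparison above, so that the values below are not independent of it. In IS against control cells 1 member was called, against 7.94% of all genes tested, and this was Nr1d1. Nr1d1 was at 20.8, 24.3, 21.0, 28.1 and 22.2 CPM with IS. All 5 values were below the lowest control value, and Nr1d1 fell by 0.63 on the log2 scale (SE 0.10, edgeR adjusted p = 0.002), which with the trends out was -0.47 (edgeR adjusted p = 0.0013). A model of the 2 groups alone did not call it (edgeR adjusted p = 0.24), while Thra differed by -0.35 ± 0.12 (edgeR adjusted p = 0.089) and its part was not tested.

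The other members had no call with IS, and this depended on control replicate 1 and on IS replicate 4. Dbp was at 8.0, 10.2, 10.0, 12.3 and 9.33 CPM with IS (-0.36 ± 0.13, edgeR adjusted p = 0.11). Clock was at 86.3, 82.7, 84.0, 38.9 and 71.4 CPM with IS (0.48 ± 0.23, edgeR adjusted p = 0.18), where the single low value came from IS replicate 4. Arntl was at 19.8, 18.9, 18.5, 17.2 and 22.3 CPM with IS (0.25 ± 0.10, edgeR adjusted p = 0.13). Without control replicate 1, 6 members were called, against 33.4% of all genes in that fit, and without IS replicate 4 there were also 6, against 34.4%. Without both libraries there were 7, against 45.8%. These were Nr1d1 (-0.76) and Dbp (-0.53) on the lower side and Arntl (0.34), Clock (0.89), Per2 (0.54), Per3 (0.59) and Nr1d2 (0.58) on the higher side. When all libraries were kept and the trends taken out, Nr1d1 was the one member called.

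The third question was what pNaKtide did alone. No member was called in pNaKtide against control cells, where 1 gene of all those tested was called (0.00497%) and 1233 had an unadjusted p under 0.05, 2 members (Dbp and Tef) among them. DESeq2 and limma called no member either. The log2 fold changes of the members lay between -0.19 for Nr1d2 and 0.35 for Dbp, with SE of up to 0.24 for Per3. Dbp was at 18.2, 17.6, 13.6, 16.0 and 16.1 CPM with pNaKtide, 4 of 5 values above the highest control value (edgeR adjusted p = 0.72). All 5 Tef values with pNaKtide, between 119 and 125 CPM, were below the lowest control value of 127 CPM (-0.13 ± 0.06, edgeR adjusted p = 0.81).

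The fourth question was what pNaKtide did in cells given oxLDL, and it was here that most members differed. In oxLDL + pNaKtide against oxLDL cells 7 of the 10 members were called, 2 higher and 5 lower, against 48.3% of all genes tested. Without oxLDL + pNaKtide replicate 4 there were 5, against 41.5%: Arntl (-0.50), Clock (-0.98), Nr1d1 (0.61), Nr1d2 (-0.70) and Dbp (1.00). The median log2 fold change of the members was -0.28 and that of all genes -0.09.

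Both activators fell. Clock was at 41.8, 49.7, 34.5, 19.7 and 39.7 CPM with oxLDL + pNaKtide, all below the lowest oxLDL library (62.3 CPM), and fell by 1.13 on the log2 scale (SE 0.23, edgeR adjusted p = 0.00029). After the trends were taken out the difference was -0.35 (edgeR adjusted p = 0.002), which kept the call with a smaller size. Arntl was at 11.5, 14.8, 15.01, 13.4 and 11.5 CPM with oxLDL + pNaKtide and fell by 0.51 (SE 0.10, edgeR adjusted p = 0.00026), with groups that did not overlap. With the trends out its difference was -0.26 (edgeR adjusted p = 0.024).

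Of the repressors, Per2 and Per3 were called lower, near the threshold, and Cry1 and Cry2 were not called. Per2 differed by -0.36 ± 0.16 (edgeR adjusted p = 0.065) and Per3 by -0.50 ± 0.23 (edgeR adjusted p = 0.081), both with groups that overlapped. Both calls were lost at an adjusted p of 0.05 and without oxLDL replicate 1 or 5 or oxLDL + pNaKtide replicate 4 or 5, and that of Per3 also without oxLDL replicate 2 or oxLDL + pNaKtide replicate 2. Once the trends were out, Per2 was at -0.47 (edgeR adjusted p = 0.024) and Per3 at -0.45 (edgeR adjusted p = 0.11), the latter no longer called. Cry1 was at 8.92, 8.86, 9.86, 9.77 and 8.36 CPM with oxLDL + pNaKtide and at 10.4, 10.6, 10.0, 11.5 and 10.3 CPM with oxLDL. These groups did not overlap, but the difference of -0.21 ± 0.11 was not called (edgeR adjusted p = 0.14), and it was with the trends out (-0.28, edgeR adjusted p = 0.058). Cry2 differed by 0.16 ± 0.09 (edgeR adjusted p = 0.18), and DESeq2 and limma called it.

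The REV-ERB paralogs were again called in opposite directions. Nr1d1 was at 44.1, 37.7, 33.0, 43.2 and 46.6 CPM with oxLDL + pNaKtide, above every oxLDL library (highest 28.5 CPM), and rose by 0.62 ± 0.10 (edgeR adjusted p = 2.4e-05). Nr1d2 was at 9.50, 8.13, 7.91, 4.14 and 7.85 CPM, below every oxLDL library (lowest 10.7 CPM), and fell by 0.84 (SE 0.17, edgeR adjusted p = 0.00025). Taking the trends out gave 0.34 (edgeR adjusted p = 0.00068) and -0.25 (edgeR adjusted p = 0.084) in this order, and both kept their calls. Thra differed by 0.32 ± 0.12 (edgeR adjusted p = 0.028).

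Dbp showed the largest rise of the members, and Tef was not called. Dbp was at 14.9, 13.3, 18.1, 22.8 and 22.8 CPM with oxLDL + pNaKtide, all above the highest oxLDL value of 9.83 CPM. The log2 fold change was 1.07 ± 0.14 (edgeR adjusted p = 6.7e-06), and with the trends out it was 0.68 (edgeR adjusted p = 1.8e-06). Sphk2 rose by 0.57 ± 0.09 (edgeR adjusted p = 2.9e-05). Tef differed by -0.07 ± 0.06 (edgeR adjusted p = 0.40).

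**Figure D2:**
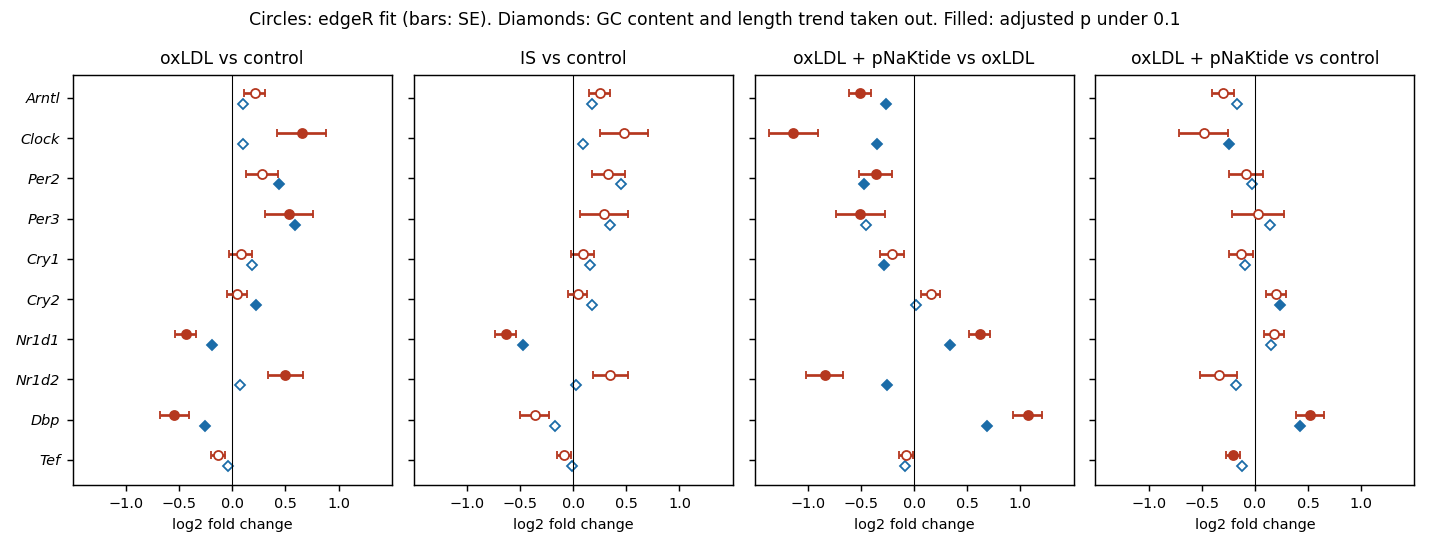
Log2 fold changes (x axis) of the 10 clock genes (y axis) in 4 comparisons, from edgeR with SE bars (circles) and with each library's GC and length trends taken out (diamonds), filled where the adjusted p was under 0.1. With the trends out, Clock and Nr1d2 drop to 0.10 and 0.07 in oxLDL against control and lose their calls, while Nr1d1 and Dbp stay called there and in oxLDL + pNaKtide against oxLDL.

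Whether pNaKtide acted differently in cells given oxLDL than in cells without it was tested as an interaction, the change with pNaKtide under oxLDL less the change with pNaKtide alone. It was called for 5 members, against 24.6% of all genes tested. It was positive for Nr1d1 (0.60 ± 0.14, edgeR adjusted p = 0.020) and Dbp (0.72 ± 0.19, edgeR adjusted p = 0.025). It was negative for Arntl (-0.37 ± 0.15, edgeR adjusted p = 0.084), Clock (-0.98 ± 0.32, edgeR adjusted p = 0.045) and Nr1d2 (-0.65 ± 0.24, edgeR adjusted p = 0.067). With the trends out only Nr1d1 passed the threshold (0.30, edgeR adjusted p = 0.086), against 11.5% of all genes, and the values were 0.31 for Dbp (edgeR adjusted p = 0.14), -0.32 for Clock (edgeR adjusted p = 0.10), -0.19 for Arntl (edgeR adjusted p = 0.39) and -0.14 for Nr1d2 (edgeR adjusted p = 0.65). Nr1d1 and Dbp were the 2 members left without oxLDL + pNaKtide replicate 4, the library with the least Clock and Nr1d2 (12.6% of all genes), without pNaKtide replicate 3 (10.5%) and with the close pairs summed (12%). Without both libraries that stand apart, these 5 members stayed called, Clock at -1.23 (edgeR adjusted p = 0.0012) and Dbp at 0.80 (edgeR adjusted p = 0.00086) among them, and Per2 was called too (-0.59, edgeR adjusted p = 0.025). The interaction was 0.50 ± 0.16 for Thra (edgeR adjusted p = 0.042) and 0.56 ± 0.13 for Sphk2 (edgeR adjusted p = 0.019).

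In IS + pNaKtide against IS cells no member was called, and neither was any gene (0%, with 564 genes at an unadjusted p under 0.05, Nr1d1 and Dbp among them). DESeq2 and limma called no member here either. Nr1d1 was at 28.5, 26.9, 29.7, 28.9 and 30.9 CPM with IS + pNaKtide, above 4 of the 5 IS libraries, with a log2 fold change of 0.32 ± 0.10 (edgeR adjusted p = 1). Dbp was at 11.6, 12.3, 11.8, 12.5 and 12.4 CPM (0.29 ± 0.13, edgeR adjusted p = 1). The interaction of IS and pNaKtide was called for no member and for no gene (0%, with 619 genes at an unadjusted p under 0.05, Nr1d1 and Tef among them, and no member by DESeq2 or limma), and lay between -0.09 for Per2 and 0.30 for Nr1d1. Whether pNaKtide acted differently with oxLDL than with IS was not tested for the members.

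Set against control cells, the groups given both agents differed in few members. In oxLDL + pNaKtide against control 2 members were called, against 5.20% of all genes. Dbp was higher (0.52 ± 0.13, edgeR adjusted p = 0.026), with 1 of its 5 libraries within the control range, and kept its call with the trends out (0.43, edgeR adjusted p = 0.0035), but not in a model of the groups compared alone (edgeR adjusted p = 0.19). Sphk2 differed by 0.16 ± 0.09 (edgeR adjusted p = 0.39). Without oxLDL + pNaKtide replicate 4 the difference of Dbp was 0.45 (edgeR adjusted p = 0.082). Once the trends were out, Clock (-0.24, edgeR adjusted p = 0.092) and Cry2 (0.24, edgeR adjusted p = 0.078) were called as well, which with Dbp made 3 members, against 9.50% of all genes. Tef was at 121, 111, 118, 102 and 122 CPM against 136, 127, 137, 128 and 134 CPM in control cells, and fell by 0.20 (SE 0.07, edgeR adjusted p = 0.081). Its groups did not overlap, but the call was lost with the trends out (-0.13, edgeR adjusted p = 0.30), in a model of the groups compared alone, with the close pairs summed and without control replicate 1, among other alternatives. In IS + pNaKtide against control no member was called, against 0.358% of all genes. Of the 20139 genes tested, 4022 had an unadjusted p under 0.05 there, 3 members (Arntl, Per2 and Nr1d1) among them. Every Nr1d1 value was below the lowest control value, though by little (30.9 CPM for both when rounded) (-0.31 ± 0.10, edgeR adjusted p = 0.15). Without control replicate 1, 7 members were called in that comparison, against 26.9% of all genes in that fit.

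The replicates were then examined as a check on the time of harvest. The SD of log2 CPM within groups, pooled over the 6 groups, was lowest for Tef (0.069), Cry2 (0.13), Nr1d1 (0.15), Arntl (0.15) and Cry1 (0.16), all below the median of 0.21 over the 12580 genes tested whose mean log2 CPM reached 1. It was 0.21 for Dbp, 0.26 for Per2 and 0.30 for Nr1d2, and highest for Clock (0.40) and Per3 (0.41), where 94.7% and 95.3% of those genes had a smaller SD. Within a group, the highest library was at most 2.74 times the lowest (Per3 with pNaKtide) and 1.31 times for Arntl. For Per3, counting error alone gives an SD of 0.18 at its mean count, and for Clock 0.053. With the GC and length trends taken out, the SD was 0.14 for Clock, 0.16 for Nr1d2 and 0.12 for Dbp, against a median of 0.16 over the same genes, and it stayed at 0.38 for Per3 and 0.27 for Per2. The spread between replicates thus went down with the trends in members of low GC content (Clock, Nr1d2) and of high GC content (Dbp, and Nr1d1 from 0.15 to 0.11), as did the median over all genes. It did not in Per2, Cry1 (0.16 to 0.18) and Tef (0.069 to 0.097). There was little change for Per3, for Arntl (0.148 to 0.132) and for Cry2 (0.1335 to 0.127), whose GC content was 55.6%.

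**Figure D3:**
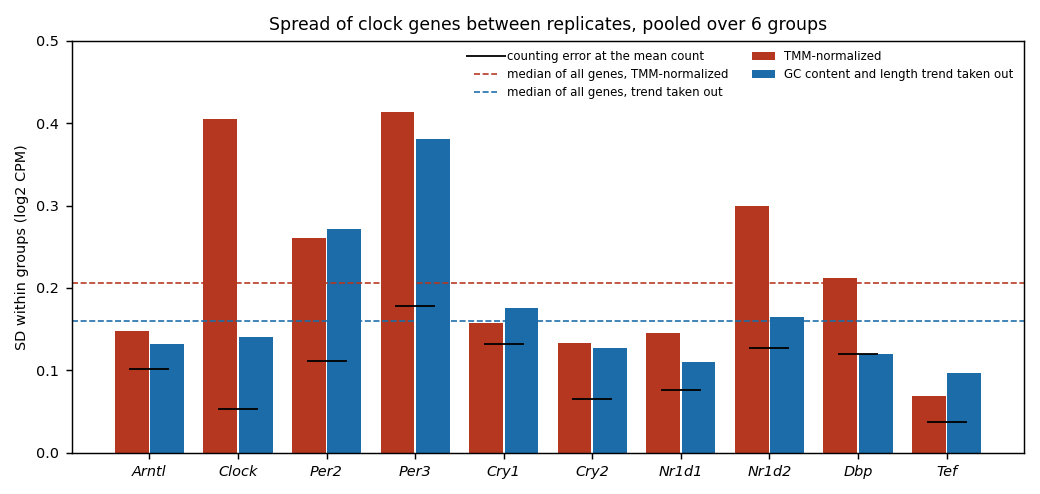
SD of log2 CPM within groups (y axis), pooled over the 6 groups, for the 10 clock genes (x axis), before (red bars) and after (blue bars) each library's GC and length trends were taken out, with the counting error at the mean count (black lines) and the medians of all genes (dashed lines, 0.21 and 0.16). Clock drops from 0.40 to 0.14, and Per3 and Per2 stay above both medians.

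In a population of cultures harvested at different phases, replicates would differ most along pairs of genes with opposite peaks, and 6 such or related pairs were correlated over the 30 libraries after each group's mean was removed, with p-values from 100000 permutations within groups (two-sided, BH-adjusted over the 6 pairs, threshold 0.05). Arntl and Nr1d1 deviated in opposite directions (Pearson r = -0.71, permutation p = 0.00015, adjusted 0.0009, Spearman rho = -0.71, permutation p = 0.00018, adjusted 0.0011), and r was -0.70 without the 2 libraries farthest from the median of Arntl. So did Arntl and Dbp (r = -0.59, permutation p = 0.0080, adjusted 0.012, rho = -0.58, permutation p = 0.0069, adjusted 0.010), with r = -0.77 without the farthest 2 libraries. Dbp and Per3, which peak at near phases in a running clock, also deviated in opposite directions (r = -0.64, permutation p = 0.0011, adjusted 0.0033, rho = -0.60, permutation p = 0.0029, adjusted 0.0088, r = -0.63 without the farthest 2).

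Nr1d1 and Dbp deviated together (r = 0.62, permutation p = 0.0055, adjusted 0.011, rho = 0.59, permutation p = 0.0044, adjusted 0.0088, r = 0.68 without the farthest 2). Arntl and Per3 deviated together by Pearson's r (0.45, permutation p = 0.028, adjusted 0.033) and not by Spearman's rho (0.40, permutation p = 0.048, adjusted 0.058), with r = 0.49 without the farthest 2. Dbp and Tef, which both encode PAR bZIP factors and which peak at near phases, showed no detectable relation (r = -0.12, permutation p = 0.67, adjusted 0.67, rho = -0.079, permutation p = 0.71, adjusted 0.71, r = -0.18 without the farthest 2). The signs for Arntl with Nr1d1 and Dbp, and for Nr1d1 with Dbp, were those of the textbook order of peaks. Those for Per3 with Arntl and Dbp were not. No clock time of harvest is given, and the part of phase in these values was not tested.

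These relations moved with the series-wide features given above. Within groups, the first principal component of all genes correlated at -0.94 with Clock, at -0.87 with Nr1d2, at 0.82 with Dbp, at -0.77 with Per3, at -0.71 with Per2, at 0.70 with Nr1d1 and at -0.61 with Arntl, and less for the other members, as a description over 30 libraries that differ in depth and in GC trend. With the GC and length trends taken out no pair passed the threshold. Arntl and Nr1d1 were then at r = -0.53 (permutation, adjusted p = 0.14), Dbp and Per3 at -0.54 (permutation, adjusted p = 0.067) and Arntl and Dbp at -0.16 (permutation, adjusted p = 0.81). Without both libraries that stand apart, Arntl and Nr1d1 still passed (r = -0.64, permutation, adjusted p = 0.014) and the other pairs did not.

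The log2 difference of Arntl less Dbp, 2 genes with opposite peaks in a running clock, was taken as 1 number per library. It was 0.35 ± 0.41 (SD, n = 5) in control cells, between 0.051 and 0.93. It was -0.14 ± 0.28 with pNaKtide, 0.95 ± 0.33 with IS and 0.63 ± 0.092 with IS + pNaKtide. It was 1.09 ± 0.25 with oxLDL, between 0.77 and 1.39, and -0.45 ± 0.44 with oxLDL + pNaKtide, between -0.98 and 0.15, so that the last 2 groups did not overlap. The highest control value, 0.93, was that of replicate 1, and the lowest IS value, 0.48, belonged to replicate 4. With the trends out the control libraries lay between 0.31 and 0.62 and the IS libraries between 0.62 and 1.04, and the oxLDL groups still did not overlap (0.64 to 1.00 without and -0.66 to 0.24 with pNaKtide).

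**Figure D4:**
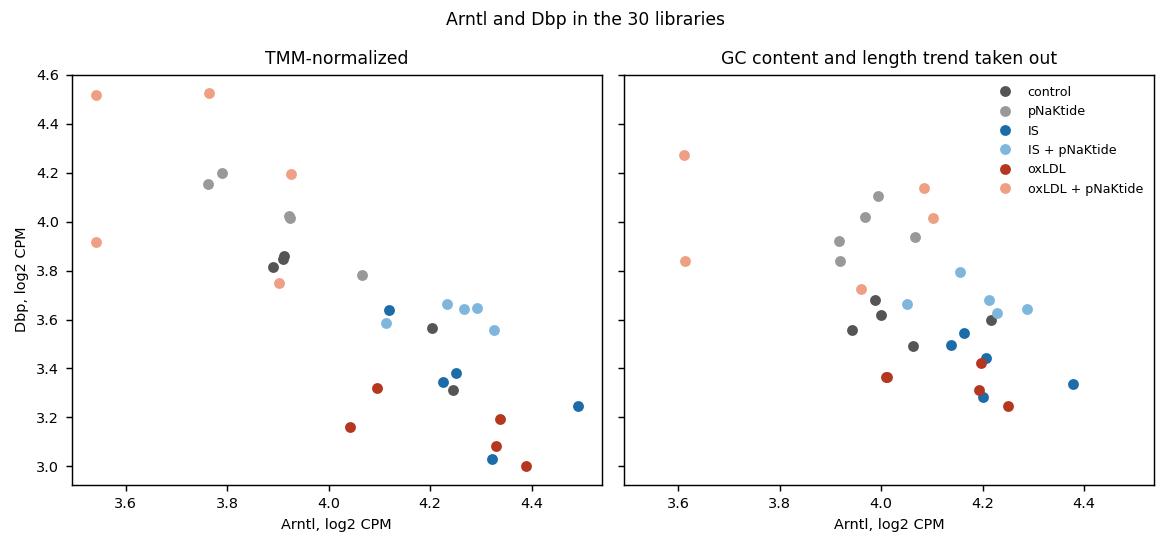
Log2 CPM of Dbp (y axis) against Arntl (x axis) in each of the 30 libraries (points, coloured by group), TMM-normalized (left) and with each library's GC and length trends taken out (right). On the left the libraries run from oxLDL (high Arntl, low Dbp) to oxLDL + pNaKtide (low Arntl, high Dbp), and on the right the within-group relation is at r = -0.16 while these 2 groups stay apart.

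Over all 30 libraries, group differences included, the genes whose log2 CPM was most like that of Arntl were Lpar1, Klf10, Ikbip, Pam and Frk (Pearson r between 0.90 and 0.92). None of them is a clock member, and among the 12579 genes ranked Clock was at place 1176 (r = 0.77) and Nr1d2 at 2068 (r = 0.72). Nr1d1, at r = -0.87, was at place 12481, near the opposite end. Dbp was most like Phb2, Mbd3, Ltc4s, Polr2l and Cox5b (r between 0.94 and 0.96), and Nr1d1 was at place 1407 (r = 0.84).

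Of 20 other genes of the clock and its regulators, 19 had enough reads to be tested and 7 differed among the 6 groups (45.1% of all genes). In oxLDL against control cells 4 were higher and 1 was lower (36.0% of all genes). The higher ones included Rora, an activator of Arntl (0.77 ± 0.24, edgeR adjusted p = 0.019), Noct (0.47 ± 0.12, edgeR adjusted p = 0.0093) and Bhlhe41, a repressor at E-boxes (0.39 ± 0.12, edgeR adjusted p = 0.020). Nfil3, a repressor at D-boxes, was lower (-0.27 ± 0.09, edgeR adjusted p = 0.030). With the trends taken out these were 0.23, 0.21, 0.25 and -0.024 in this order, none called, while 3 genes of the list were higher and 1 was lower (19.9% of all genes). In oxLDL + pNaKtide against oxLDL, Nfil3 was higher (0.32 ± 0.09, edgeR adjusted p = 0.0057) and 6 genes were lower, among them Rora (-1.05 ± 0.24, edgeR adjusted p = 0.00096) and Fbxl21 (-0.90 ± 0.29, edgeR adjusted p = 0.011), against 48.3% of all genes. Once the trends were out, 2 genes of the list were higher and 5 lower (36.7% of all genes), and of the 3 named Rora alone kept its call (-0.27, edgeR adjusted p = 0.054). Bhlhe40, also called over the 6 groups (edgeR adjusted p = 0.049), differed by -0.17 ± 0.09 with oxLDL (edgeR adjusted p = 0.16).

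Genes of signals that reset a clock were given beside these. Of 10 genes that respond to glucocorticoids, which adipogenic media often hold, 9 were tested, and in oxLDL + pNaKtide against oxLDL 2 were higher and 6 lower (48.3% of all genes), among them Errfi1 (-0.57 ± 0.09, edgeR adjusted p = 1.7e-05), Sgk1 (-0.58 ± 0.09, edgeR adjusted p = 2.9e-05) and Tsc22d3 (-0.84 ± 0.15, edgeR adjusted p = 7.8e-05). These 3 stayed called with the trends out (-0.39, -0.43 and -0.69 in this order), when 1 gene of the list was higher and 6 were lower (36.7% of all genes). In oxLDL against control 3 were higher and 2 lower (36.0% of all genes), with Sgk1 at 0.29 ± 0.09 (edgeR adjusted p = 0.023) and Tsc22d3 at 0.40 ± 0.15 (edgeR adjusted p = 0.044). Of 10 immediate early genes, which serum induces within the hour, none was called in oxLDL + pNaKtide against oxLDL (48.3% of all genes). By contrast 2 were lower in oxLDL against control (36.0% of all genes), Egr1 (-0.29 ± 0.08, edgeR adjusted p = 0.013) and Ier2 (-0.32 ± 0.13, edgeR adjusted p = 0.056). With the trends out neither was called in the latter, where Jun (0.28, edgeR adjusted p = 0.016) and Nr4a1 (0.36, edgeR adjusted p = 0.084) were higher instead, and 5 of the 10 were lower in the former (36.7% of all genes). Nr4a1 differed among the 6 groups (edgeR adjusted p = 0.041) and, with all trends kept, in neither of these comparisons (0.13 ± 0.14 and 0.08 ± 0.14). The part of these signals in the clock genes' values was not tested.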

How the data were processed

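The authors trimmed paired-end reads with Trimmomatic 0.38, aligned them to GRCm38 with HISAT2 2.1.0 and counted reads per gene, and these deposited counts, neither normalized nor pooled, were used for all tests. Annotation release and strand setting: not given in the sources used here. Normalized signal values by the authors are counts divided by 1 size factor per library. Divided by the authors' FPKM, they gave the gene lengths used for the length trends. The authors' FPKM values gave levels per length and 1 alternative.

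The members and lists were chosen with earlier results of these data known. Of 54232 genes, the 20139 with more than 14 counts over 30 libraries were fitted with edgeR 4.0.16 (R 4.3.3, TMM, robust quasi-likelihood, 6 groups, two-sided, BH threshold 0.1, prior count 2, common biological coefficient of variation 14.0%). All 10 members were named, other clock genes called over the 6 groups (1 is not reported here), up to 3 genes per resetting signal, and the 5 genes most like Arntl and Dbp. Thra and Sphk2 were added after their overlap was seen. GC and length trends were taken out as offsets per library (natural splines, 5 degrees of freedom). Other alternatives were DESeq2 1.42.0, its size factors (RLE), library size alone, other count filters, limma 3.58.1 on log2(FPKM + 1), an adjusted p of 0.05, a replicate block, the compared groups alone, leaving out libraries and, chosen after seeing the data, taking replicate pairs with a chi-square under 2 per degree of freedom as 1 library each. Python 3.11.15 with scipy 1.17.1 ran the permutations. Steps were tested on simulated data.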

Additional observations from a re-analysis of the deposited data

Results flagged for a closer look

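Of 60 groups of 5 values (10 members in 6 groups), 4 held a value far from the other four by Dixon's test, of which chance alone gives about 1 in 20. Clock was low in IS + pNaKtide replicate 2 (44.2 CPM, others 68.1 to 75.3 CPM), Per2 was high in control replicate 1 (16.7 CPM, others 10.4 to 12.2 CPM), Cry1 was low in IS replicate 4 (7.23 CPM, others 10.8 to 11.8 CPM) and Tef was high in pNaKtide replicate 4 (125 CPM, others 119 to 120 CPM).

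For 5 members the change with pNaKtide differed between cells with and without oxLDL, by edgeR's interaction term, against 24.6% of all genes. With the GC and length trends taken out, Nr1d1 alone was called (11.5% of all genes), and with the close pairs of replicates summed, Nr1d1 and Dbp (12%). The log2 difference was -0.37 for Arntl (edgeR adjusted p = 0.084), -0.98 for Clock (edgeR adjusted p = 0.045), 0.60 for Nr1d1 (edgeR adjusted p = 0.020), -0.65 for Nr1d2 (edgeR adjusted p = 0.067) and 0.72 for Dbp (edgeR adjusted p = 0.025).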

How the results depend on the processing

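No log2 fold change of a member that was called turned its sign under any alternative. Counts of members called moved as follows, with the share of all genes called in brackets. In IS against control (1, 7.94%), DESeq2 (15.7%) and more than 14 counts in every library (21.0%) gave 3, library size alone (12.6%) and the replicate block (17.0%) 2, the compared groups alone 0 (0%), and leaving out control replicate 1 and IS replicate 4 (both libraries below) 7 (45.8%). In oxLDL + pNaKtide against control (2, 5.20%), DESeq2 gave 4 (9.04%), an adjusted p of 0.05 (2.93%), RLE factors (5.17%), a minimum of 1 count (2.24%), leaving out both libraries (6.53%) and summing the close pairs (4.45%) 1, and the compared groups alone 0 (0.0702%). In IS + pNaKtide against control (0, 0.358%, with 4022 genes at an unadjusted p under 0.05), DESeq2 (7.38%), more than 14 counts in every library (2.70%), the replicate block (6.64%), the compared groups alone (7.39%) and the trends taken out (2.09%) gave 1, and leaving out both libraries 7 (32.7%). In the interaction of oxLDL and pNaKtide (5, 24.6%), an adjusted p of 0.05 gave 3 (13.4%), summing the close pairs 2 (12%) and the trends taken out 1 (11.5%). Summing the close pairs gave 3 (25.1%) in oxLDL against control and 5 (38.6%) over the 6 groups.

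Leaving out 1 library gave 3 (control replicate 2, 25.6%, or 4, 24.7%) to 8 (oxLDL replicate 3, 36.3%) members in oxLDL against control, 1 to 6 (control replicate 1, 33.4%, or IS replicate 4, 34.4%) in IS against control (0.0747% to 34.4% over all such fits), 1 to 3 in oxLDL + pNaKtide against control (2.51% to 8.88%), 0 to 7 (control replicate 1, 26.9%) in IS + pNaKtide against control, 2 (oxLDL + pNaKtide replicate 4, 12.6%, or pNaKtide replicate 3, 10.5%) to 6 (25.4% to 37.5%) in the interaction of oxLDL and pNaKtide, and 5 (oxLDL + pNaKtide replicate 4, 42.9%) to 9 (45.5% to 50.9%) over the 6 groups. The causes were not tested.

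Of the pairs, Nr1d1 and Dbp were at r = 0.36 (permutation, adjusted p = 0.14) with library size alone, and Arntl and Per3 at 0.42 (permutation, adjusted p = 0.082) with the close pairs averaged. With the trends taken out, r was -0.53 for Arntl and Nr1d1, -0.16 for Arntl and Dbp, 0.055 for Arntl and Per3, 0.13 for Nr1d1 and Dbp and -0.54 for Dbp and Per3. Without both libraries it was -0.48 for Arntl and Dbp, 0.31 for Arntl and Per3, 0.47 for Nr1d1 and Dbp and -0.51 for Dbp and Per3, none past the threshold. Leaving out 1 library gave 0.38 (control replicate 1) to 0.53 for Arntl and Per3, whose call was lost in 7 of 30 such fits (control replicate 1, 2 or 4, IS replicate 4, oxLDL replicate 3, oxLDL + pNaKtide replicate 3 and pNaKtide replicate 1).

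Whether replicate numbers pair the libraries across groups was not tested. Of 75 correlations between same-numbered libraries, 37 were over 0.1 (mean 0.069, against a mean of -0.019 for 300 between different numbers), and 10 of 30 libraries correlated best with their own number. At these depths Per3, with 18 to 126 reads per library, has the least precise values.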
